A study of Mus musculus with 15 samples.

Results

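Ear RNA of mice that lack *Socs3* in the keratin 5 lineage, the conditional knockout termed *Socs3* cKO, held more transcript of several genes of the fat cell than ear RNA of the wild type. The 10 genes described here, *Adipoq*, *Cidec*, *Fabp4*, *Lep*, *Cfd*, *Pparg*, *Lpl*, *Retn*, *Cebpa* and *Dgat2*, were chosen by name as genes of the dermal adipocyte, and all 10 were found among the 21110 genes measured. *Cfd* and *Pparg* were up-regulated in *Socs3* cKO at both ages and *Retn* at 2 weeks. *Lep* was also called at 10 weeks, a gene that entered the test through *Socs3* cKO alone. *Lpl* and *Cebpa* were called at neither age. At each age 3 of 10 were called higher, beside 7.24% of all genes tested at 2 weeks and 12.5% at 10 weeks. Of 6 tested adipocyte markers outside these 10, 0 were called at either age, with a median log2(FC) of 0.02 and 0.13. Sebocyte genes summed higher in *Socs3* cKO at both ages with no overlap, and their part was not tested. At 10 weeks the calls of *Cfd* and *Pparg* were lost when the libraries were rescaled to a common median. At 2 weeks the call of *Cfd* was lost without any 1 of the 4 wild type mice. That of *Pparg* was lost, at 0.81, with the trend of each library in transcript length and GC content removed. The codes in the sample titles and the level of GC-rich genes also separated the genotypes at each age, and their part was not tested.

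All 15 mice were C57BL/6, and 1 library was made from each. At 2 weeks after birth 4 mice were wild type and 4 were *Socs3* cKO, and at 10 weeks 3 were wild type and 4 were *Socs3* cKO. In these knockout mice the gene for suppressor of cytokine signaling 3 is deleted through keratin 5, a keratin of basal epidermal cells, and not in the adipocytes themselves. The sample labels name the source as keratinocytes, whereas the RNA came from whole ear specimens, so each value is a mixture over epidermis, glands, dermis, fat, muscle and cartilage. In such bulk RNA, a difference in the number of adipocytes and a difference in RNA per adipocyte cannot be told apart.

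Adipocytes of the skin form a layer under the dermis and around hair follicles. They store triglyceride in 1 large droplet, release fatty acids from it and secrete proteins such as adiponectin and leptin. PPARγ and C/EBPα are the transcription factors that switch on and maintain this program, and several of the other genes here are their targets. Sebocytes of the skin also use PPARγ and make lipid, and FABP4 is made by macrophages and endothelium too, so not every one of these genes belongs to adipocytes alone.

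Levels are given as FPKM, a read count scaled to the length of the transcript and to the mapped reads of the library. Depth was estimated at 11300000 to 16100000 mapped reads per library from the size of 1 read in the low values. At that depth the lowest value of *Retn* rests on about 12 reads, that of *Lep* on about 14, that of *Cidec* on about 47, and that of *Adipoq* on about 106. *Socs3* itself read 9.71, 10.2, 10.3 and 10.3 FPKM in the wild type and 1.25, 9.32, 12.6 and 3.51 FPKM in *Socs3* cKO at 2 weeks. At 10 weeks it read 2.76, 4.81 and 2.02 FPKM in the wild type and 36.5, 29.8, 47.7 and 32.4 FPKM in *Socs3* cKO. The groups overlapped at 2 weeks and *Socs3* cKO was the higher at 10 weeks, against the direction of a deletion, so the genotype rests on the labels alone. *Socs3* cKO stands below for the libraries labelled so. The level of GC-rich genes moved with genotype, and replicate 1 of *Socs3* cKO at 2 weeks stood farthest from the other libraries. Its genes of at least 55% GC had a median log2 level 2.09 below that of its genes of at most 45% GC, whereas in the wild type of that age they lay 0.85 to 0.95 above. The same difference was -0.15 to -0.04 in the other 3 *Socs3* cKO libraries at 2 weeks, and at 10 weeks the wild type libraries gave 0.27 to 0.68 and the *Socs3* cKO libraries -0.24 to 0.01. The groups thus did not overlap in it at either age, and its part in the results was not tested. Members whose call or direction at 2 weeks changed without replicate 1 are given without it too.

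Before the levels, the sequence before the start of transcription is given for the members that passed a genotype test and for *Adipoq*, the genes on which the comparisons turn. Each is 250 bases upstream of a start in RefSeq (mouse build GRCm38.p6), with matches in capitals on either strand. The motifs searched were the C/EBP core TTGCNNAA, the nuclear receptor element AGGTCA, the CCAAT box CCAAT and the TATA box TATAAA. They occurred in 9.56%, 14%, 33.8% and 12.4% of 32851 promoters of the same length.
*Adipoq*, chr16:23146286-23146535, plus strand: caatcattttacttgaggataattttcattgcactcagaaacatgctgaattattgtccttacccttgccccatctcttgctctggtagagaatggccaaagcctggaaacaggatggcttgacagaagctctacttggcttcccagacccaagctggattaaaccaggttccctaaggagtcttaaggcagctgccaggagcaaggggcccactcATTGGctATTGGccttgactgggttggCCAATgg
*Cfd*, chr10:79890603-79890852, plus strand: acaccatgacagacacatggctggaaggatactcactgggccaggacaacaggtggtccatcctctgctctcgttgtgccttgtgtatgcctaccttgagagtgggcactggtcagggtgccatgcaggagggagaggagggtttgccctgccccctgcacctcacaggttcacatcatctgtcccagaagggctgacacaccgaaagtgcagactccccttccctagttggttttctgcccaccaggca
*Lep*, chr6:29059971-29060220, plus strand: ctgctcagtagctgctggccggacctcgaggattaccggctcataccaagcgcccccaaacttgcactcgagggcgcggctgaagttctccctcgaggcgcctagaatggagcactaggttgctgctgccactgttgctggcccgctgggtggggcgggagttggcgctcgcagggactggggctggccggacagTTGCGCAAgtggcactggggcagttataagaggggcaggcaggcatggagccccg
*Pparg*, most downstream of 3 starts, chr6:115421816-115422065, plus strand: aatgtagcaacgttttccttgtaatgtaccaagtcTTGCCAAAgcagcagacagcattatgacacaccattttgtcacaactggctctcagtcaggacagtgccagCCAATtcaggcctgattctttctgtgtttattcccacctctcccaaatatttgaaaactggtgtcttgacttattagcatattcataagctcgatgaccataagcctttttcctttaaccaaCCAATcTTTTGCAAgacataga
*Retn*, chr8:3655520-3655769, plus strand: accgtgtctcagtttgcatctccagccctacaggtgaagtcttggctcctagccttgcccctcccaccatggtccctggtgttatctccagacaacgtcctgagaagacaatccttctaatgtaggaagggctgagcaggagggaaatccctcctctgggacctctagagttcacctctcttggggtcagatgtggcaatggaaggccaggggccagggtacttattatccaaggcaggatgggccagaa
*Adipoq* held 3 CCAAT boxes, of which 2 are read on the minus strand as ATTGG. The *Lep* window held the C/EBP core TTGCGCAA from -55 to -48, counted back from the start. The *Pparg* window held 2 matches to that core, TTGCCAAA from -215 to -208 and TTTTGCAA, the minus strand reading, from -16 to -9, and 2 CCAAT boxes. *Cfd* and *Retn* held none of the 4 motifs. Among all 7 members with an entry, 3 of 10 windows held the C/EBP core, 1 each in *Cidec*, *Lep* and *Pparg*. The nuclear receptor element was held by 2 of 10 windows, those of the other 2 *Pparg* starts, which are not printed. Neither held the C/EBP core, and 1 of them also held a CCAAT box and a TATA box. A match is a description of these letters and not a bound site. *Fabp4*, *Lpl* and *Dgat2* had no entry.

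The secreted products are described first. *Adipoq* (chr16:23146609-23158101 in mm9, plus strand, 3 exons) encodes adiponectin, a hormone made almost only by adipocytes. At 2 weeks it read 6.44, 7.89, 6.57 and 7.10 FPKM in the 4 wild type mice and 11.6, 23.0, 23.1 and 55.9 FPKM in the 4 *Socs3* cKO mice. The 3 wild type mice of 10 weeks read 15.9, 24.0 and 22.1 FPKM and the 4 *Socs3* cKO mice 52.1, 37.9, 26.8 and 52.8 FPKM. Every *Socs3* cKO mouse lay above every wild type mouse of its age, and the wild type at 2 weeks was the lowest and tightest group. The log2(FC) of 1.78 ± 0.41 (SE), adjusted p = 0.0104, at 2 weeks and of 1.0 ± 0.26 (SE), adjusted p = 0.0156, at 10 weeks both missed the adjusted p of 0.01 that was set beside a |log2(FC)| of at least 1 in limma. With mice left out 1 at a time, each was past the thresholds in 1 fit only. It was 2.13, adjusted p = 0.000422, without replicate 1 of *Socs3* cKO at 2 weeks. It was 1.20, adjusted p = 0.00648, without *Socs3* cKO replicate 3 at 10 weeks. Across such fits the log2(FC) went down to 1.38 at 2 weeks and 0.82 at 10 weeks. The adjusted p went up to 0.0328 and 0.0627. With the trend of each library in transcript length and GC content removed, the log2(FC) was 1.07, adjusted p = 0.121, at 2 weeks, not called, and 1.42, adjusted p = 0.0054, at 10 weeks, called.

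*Cfd* (chr10:79353598-79355401 in mm9, plus strand) encodes adipsin, or complement factor D, the protease that starts the alternative complement pathway and a main secreted product of fat. Its values at 2 weeks were 8.63, 8.03, 8.57 and 8.26 FPKM in the wild type and 18.1, 43.6, 35.3 and 100.2 FPKM in *Socs3* cKO. At 10 weeks they were 27.3, 19.4 and 19.6 FPKM in the wild type and 146, 78.9, 37.0 and 77.8 FPKM in *Socs3* cKO. No *Socs3* cKO mouse came as low as a wild type mouse of its age. *Cfd* was up-regulated at 2 weeks with a log2(FC) of 2.28 ± 0.44 (SE), adjusted p = 0.00566, and at 10 weeks with 1.79 ± 0.38 (SE), adjusted p = 0.00647. At 10 weeks the adjusted p rose above 0.01 when any of 5 of the 7 mice was left out, with a log2(FC) of 1.71 to 1.96 in those fits. At 2 weeks the same happened without any of the 4 wild type mice or without *Socs3* cKO replicate 3, at 2.26 to 2.35.

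*Lep* (chr6:29010220-29023877 in mm9, plus strand) encodes leptin, the hormone that reports fat stores to the brain. In the wild type it was near the limit of detection, at 0.971, 0.894, 0.596 and 0.633 FPKM at 2 weeks and 0.616, 0.603 and 0.684 FPKM at 10 weeks. In *Socs3* cKO it read 0.330, 2.08, 1.05 and 2.58 FPKM at 2 weeks and 4.17, 5.64, 2.02 and 3.12 FPKM at 10 weeks. No wild type mouse reached 1 FPKM, so *Lep* entered the tests through the *Socs3* cKO libraries alone. Since a gene that enters in this way is high in 1 group by the filter, its call is given as a description. *Lep* had a log2(FC) at 10 weeks of 2.29 ± 0.34 (SE), adjusted p = 0.00138, and adjusted p = 0.00954 with no filter on low values, where all 4 *Socs3* cKO mice exceeded all 3 wild type mice. At 2 weeks the groups overlapped, 3 *Socs3* cKO mice above and 1 below the wild type, with 0.60 ± 0.54 (SE), adjusted p = 0.36, and 1.14, adjusted p = 0.0131, without *Socs3* cKO replicate 1.

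*Retn* (chr8:3655770-3660110 in mm9, plus strand) encodes resistin, which in mice is a product of adipocytes. It read 1.88, 1.19, 2.11 and 0.859 FPKM in the wild type at 2 weeks and 7.76, 9.96, 8.97 and 29.3 FPKM in *Socs3* cKO of that age. At 10 weeks it read 4.31, 9.73 and 13.7 FPKM in the wild type and 12.6, 11.7, 3.62 and 9.96 FPKM in *Socs3* cKO. The wild type at 2 weeks thus stood below the other 3 groups, which overlapped one another. *Retn* had the highest log2(FC) of the 10 genes at 2 weeks, 2.98 ± 0.45 (SE), adjusted p = 0.00202, and at 10 weeks the log2(FC) was 0.04 ± 0.48 (SE), adjusted p = 0.95. It passed the test of the difference between the ages, with a genotype by age interaction of -2.94 ± 0.73 (SE), adjusted p = 0.00578, and no other member did. With the trend of each library in transcript length and GC content removed, the interaction was -1.77 and was not called.

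Of the transcription factors, *Pparg* (chr6:115311239-115440419 in mm9, plus strand) encodes PPARγ, the nuclear receptor required for adipocytes to form. It read 9.13, 12.0, 11.5 and 10.5 FPKM in the wild type and 33.7, 21.8, 27.7 and 28.5 FPKM in *Socs3* cKO at 2 weeks. At 10 weeks the values were 8.03, 8.22 and 9.97 FPKM and 19.1, 16.2, 15.5 and 24.9 FPKM. Each *Socs3* cKO value exceeded all 7 wild type values, and the spread within groups was narrow beside the difference. *Pparg* was up-regulated with a log2(FC) of 1.36 ± 0.17 (SE), adjusted p = 0.000768, at 2 weeks and 1.09 ± 0.20 (SE), adjusted p = 0.00395, at 10 weeks. Unlike *Adipoq*, *Cfd* and *Retn*, it was not low in the wild type at 2 weeks compared with 10 weeks. The log2(FC) at 2 weeks was 0.81, under the fold threshold, once the trend of each library with transcript length and GC content was removed. The call at 10 weeks was lost without replicates 1 or 3 of the wild type or replicates 1 or 4 of *Socs3* cKO, at 0.945 to 1.18.

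*Cebpa* (chr7:35904312-35906945 in mm9, plus strand, 1 exon) encodes C/EBPα, which keeps *Pparg* on in mature adipocytes and is also made in epidermis. It read 71.2, 64.8, 61.2 and 64.3 FPKM in the wild type and 15.5, 67.0, 106 and 90.8 FPKM in *Socs3* cKO at 2 weeks, so the groups overlapped. They also did at 10 weeks, at 59.6, 63.1 and 40.4 FPKM and 56.0, 76.9, 96.1 and 79.2 FPKM. The log2(FC) was -0.21 ± 0.54 (SE), adjusted p = 0.75, at 2 weeks and 0.50 ± 0.23 (SE), adjusted p = 0.11, at 10 weeks. The negative value rests on *Socs3* cKO replicate 1, without which it was 0.40, adjusted p = 0.0442, and with the trend in length and GC content removed it was 1.08, past both thresholds.

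The genes of lipid uptake and storage differed among themselves. *Fabp4* (chr3:10204347-10208576 in mm9, minus strand) encodes the fatty acid carrier of the adipocyte cytoplasm and was the most abundant member per length. It read 202, 219.9, 226 and 238 FPKM in the wild type and 425, 318, 395 and 601 FPKM in *Socs3* cKO at 2 weeks, with no overlap. Its log2(FC) of 0.94 ± 0.20 (SE), adjusted p = 0.00776, lay just under the fold threshold, and it was 1.07, adjusted p = 0.00179, without *Socs3* cKO replicate 2. It was -0.62 with the trend in length and GC content removed, a reversed direction. At 10 weeks the groups overlapped, at 278, 303 and 382 FPKM in the wild type and 459.5, 341, 330.5 and 641 FPKM in *Socs3* cKO, with 0.42 ± 0.27 (SE), adjusted p = 0.23. With the trend in length and GC content removed it was 1.13, adjusted p = 0.00555, and was called.

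*Cidec* (chr6:113374628-113385754 in mm9, minus strand) encodes a protein that fuses lipid droplets into the single droplet of white fat. It read 3.82, 5.16, 4.15 and 3.96 FPKM in the wild type at 2 weeks, and 2.15, 13.5, 9.46 and 21.2 FPKM in *Socs3* cKO. The first of these *Socs3* cKO mice lay below the wild type and the other 3 above it. At 10 weeks the wild type read 4.70, 12.8 and 7.87 FPKM and *Socs3* cKO 28.9, 20.8, 9.87 and 15.4 FPKM. The log2(FC) was 1.03 ± 0.61 (SE), adjusted p = 0.18, at 2 weeks, 1.69, adjusted p = 0.000628 without that mouse, and 1.15 ± 0.40 (SE), adjusted p = 0.0462, at 10 weeks, where the groups overlapped.

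*Dgat2* (chr7:106302173-106331223 in mm9, minus strand) encodes the enzyme of the last step of triglyceride synthesis and is made in sebaceous glands as well as in fat. At 2 weeks it read 67.3, 71.5, 75.1 and 74.4 FPKM in the wild type and 58.8, 229.8, 336 and 347 FPKM in *Socs3* cKO. Its pattern was that of *Cidec*, with 1 *Socs3* cKO mouse below and 3 above the wild type. The log2(FC) of 1.47 ± 0.51 (SE), adjusted p = 0.0441, became 2.05, adjusted p = 2.07e-05 without replicate 1. The wild type of 10 weeks read 114, 178 and 157 FPKM and *Socs3* cKO 134, 135, 159.5 and 165 FPKM, which overlapped, and the log2(FC) was 0.01 ± 0.20 (SE), adjusted p = 0.98.

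*Lpl* (chr8:71404390-71431347 in mm9, plus strand) encodes lipoprotein lipase, which frees fatty acids from circulating triglyceride for uptake. It was the member that varied least, from 24.8 to 56.1 FPKM over the 15 mice, and its groups overlapped at both ages. The log2(FC) was 0.04 ± 0.23 (SE), adjusted p = 0.9, at 2 weeks and 0.21 ± 0.19 (SE), adjusted p = 0.38, at 10 weeks.

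**Figure D1:**
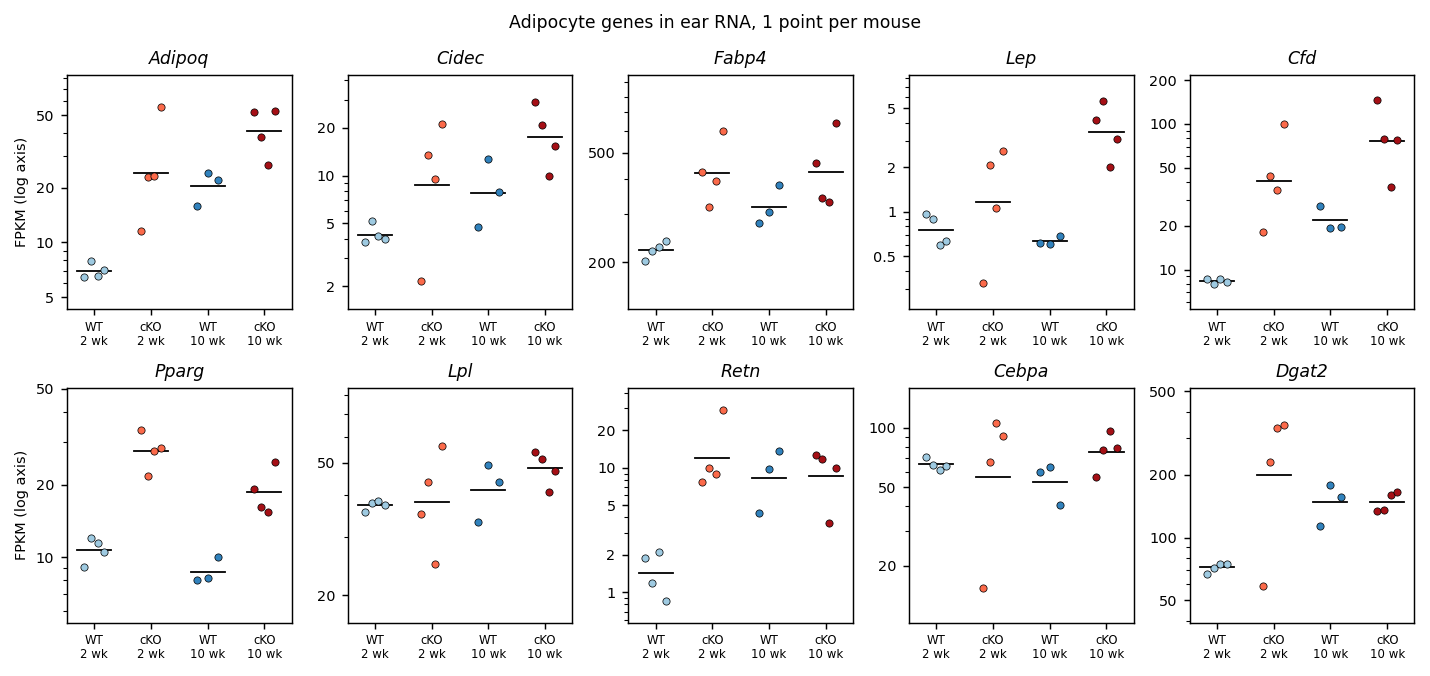
FPKM of each of the 10 genes (log axis, its own range in each panel) in every mouse of the 4 groups, with 1 point per mouse and a bar at the geometric mean of the group. *Adipoq*, *Cfd* and *Retn* are lowest in the wild type at 2 weeks, *Pparg* is higher in *Socs3* cKO at both ages, and 1 *Socs3* cKO mouse at 2 weeks falls below the wild type for *Cidec*, *Lep*, *Cebpa* and *Dgat2*.

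All 10 genes passed the filter of at least 1 FPKM in at least 3 mice of each fit, although *Lep* did so only through *Socs3* cKO. At 2 weeks 3 of 10 were called higher and 0 lower, and across the 13524 genes tested 7.24% were called higher and 7.19% lower. Groups did not overlap for 5 of 10, all higher, against 22.9% of all genes. The median log2(FC) of the members was 1.19 and that of all genes -0.21. At 10 weeks 3 of 10 were called higher and 0 lower, while 12.5% of the 13105 genes tested were called higher and 2.43% lower. Here 4 of 10 members were higher with no overlap, against 31.2% of all genes, and the median log2(FC) was 0.75 for the members and 0.31 for all genes. Both counts include *Lep*, and among the other 9 members 2 were called and 3 did not overlap. The shares at 10 weeks were thus nearer those of all genes than at 2 weeks.

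The median log2(FC) of all genes depended on the scaling. Median-of-ratios scaling moved it to 0.00 at 2 weeks and 0.05 at 10 weeks, and it also changed the call of some members. At 2 weeks *Adipoq* (1.99) and *Fabp4* (1.14) were then called as well. At 10 weeks *Lep* alone remained called, and *Pparg* (0.83) and *Cfd* (1.53) were not. *Dgat2*, *Lpl* and *Retn*, with 0.01, 0.21 and 0.04 at 10 weeks, turned negative.

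**Figure D2:**
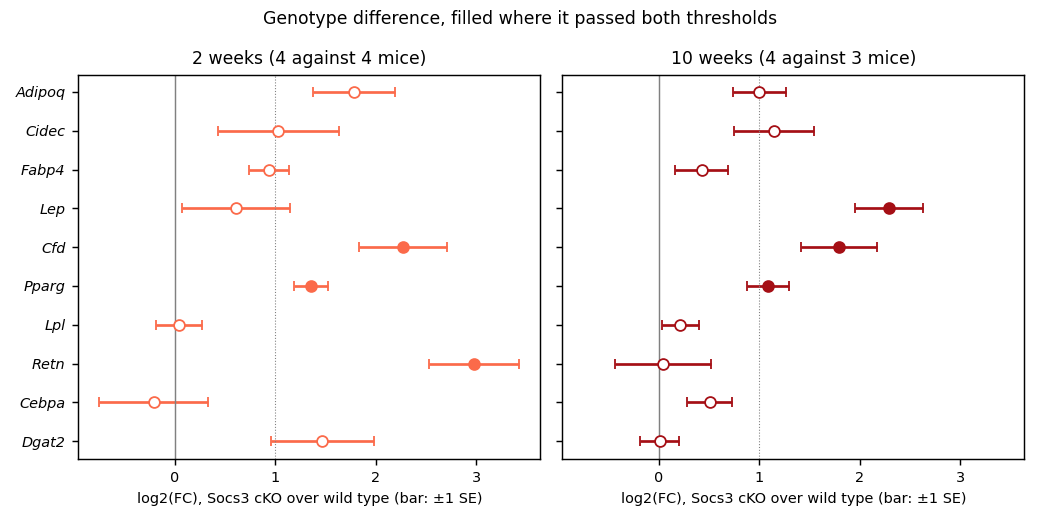
log2(FC) of *Socs3* cKO over the wild type for the 10 genes at 2 weeks (left, 4 against 4 mice) and 10 weeks (right, 4 against 3 mice), with bars of ±1 SE from limma. Filled points passed an adjusted p of 0.01 and a |log2(FC)| of 1 (dotted line), namely *Cfd*, *Pparg* and *Retn* at 2 weeks and *Lep*, *Cfd* and *Pparg* at 10 weeks.

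Replicate 1 of *Socs3* cKO at 2 weeks departed from the other 3 mice of its group by an amount that differed between the members. The log2 difference was -2.64 for *Cidec*, -2.47 for *Cebpa*, -2.34 for *Dgat2* and -1.56 for *Cfd*, the 4 members whose transcripts hold over 55% GC. It was -2.14 for *Lep*, -1.41 for *Adipoq* and -0.82 for *Retn*, which hold 47.5% to 49.4% GC. The members of lowest GC content differed by -0.16 for *Lpl*, 0.01 for *Fabp4* and 0.38 for *Pparg*. The part of GC content in these differences was not tested. Without this mouse 6 of 10 members were called higher at 2 weeks, *Adipoq*, *Cfd*, *Cidec*, *Dgat2*, *Pparg* and *Retn*, against 6.89% of the 13451 genes tested, and 0 lower, against 13%.

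**Figure D3:**
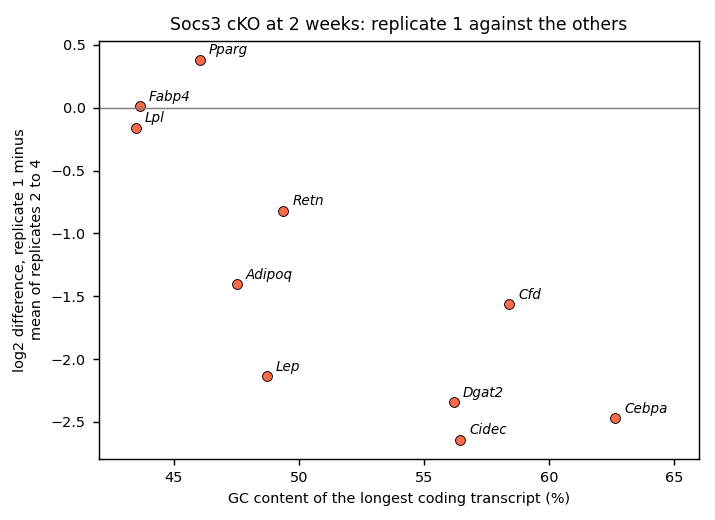
Log2 difference between replicate 1 and the mean of replicates 2 to 4 of *Socs3* cKO at 2 weeks (y axis) against the GC content of the longest coding transcript (x axis, %), 1 point per gene. The 4 genes above 55% GC lie between -2.64 and -1.56, and *Lpl*, *Fabp4* and *Pparg*, below 47% GC, lie between -0.16 and 0.38.

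Between 2 and 10 weeks in the wild type, 2 of 10 members rose, against 6.18% of the 13937 genes tested, and 0 fell, against 19.4%. *Adipoq* rose with a log2(FC) of 1.53 ± 0.39 (SE), adjusted p = 0.0053, and *Retn* with 2.46 ± 0.53 (SE), adjusted p = 0.00198. *Cfd* (1.37, adjusted p = 0.0257) and *Dgat2* (1.03, adjusted p = 0.066) missed the threshold although every mouse at 10 weeks lay above every mouse at 2 weeks. Such a separation was seen for 5 of 10 members and for 17.3% of all genes. *Pparg* (-0.30, adjusted p = 0.21), *Cebpa* (-0.29, adjusted p = 0.63) and *Lep* (-0.23, adjusted p = 0.72) had the negative values, and all 3 turned positive under median-of-ratios scaling, which moved the median of all genes from -0.44 to -0.05. The call of *Adipoq* was lost without any of the 7 wild type mice in turn, at 1.41 to 1.71, and with the trend in length and GC content removed, at 0.68. *Retn* then stood at 1.54 and was not called, and it was 2.11, adjusted p = 0.0162, without wild type replicate 3 of 10 weeks. *Cfd* was called without *Socs3* cKO replicate 1 or 4 of 2 weeks, and *Dgat2* without that replicate 1.

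In *Socs3* cKO, limma called 0 of 10 members between 2 and 10 weeks, against 3.54% of all genes. At an unadjusted p under 0.05 it gave 2 of 10 members, *Lep* (1.46, adjusted p = 0.0623) and *Pparg* (-0.57, adjusted p = 0.06), and 3681 of 13937 genes. The ages overlapped for all 10 members, whereas 7.71% of all genes were higher and 6.79% lower with no overlap. *Dgat2* was called lower at 10 weeks, at -1.02, adjusted p = 0.00201, without *Socs3* cKO replicate 1 of 2 weeks. In the interaction, 1 of 10 members was called lower, *Retn*, against 6.55% of all genes, and 0 higher, against 18%. The next in size were *Lep* (1.69, adjusted p = 0.0562), *Dgat2* (-1.46, adjusted p = 0.0603) and *Adipoq* (-0.78, adjusted p = 0.23). The interaction of *Dgat2* was -2.05, adjusted p = 3.68e-05, without replicate 1 of *Socs3* cKO at 2 weeks.

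The comparison of genotypes at 2 weeks and that of ages in the wild type share the 4 wild type mice at 2 weeks. Side by side, the log2(FC) by genotype and by age was 2.98 and 2.46 for *Retn*, 2.28 and 1.37 for *Cfd*, and 1.78 and 1.53 for *Adipoq*. It was 1.47 and 1.03 for *Dgat2*, and 1.36 and -0.30 for *Pparg*. The value by age of *Pparg* was 0.09 under median-of-ratios scaling and 0.25 under quantile normalization, so its sign rests on the scaling.

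Ratios between the members are given as a description. Relative to *Adipoq* in the same mouse, a ratio that no scaling of the library alters beyond the pseudocount, 5 of the other 9 showed no overlap between genotypes at 2 weeks. *Retn* (1.20) and *Cfd* (0.49) were higher relative to *Adipoq*, as were 0.207% of all genes. *Lep* (-1.18), *Lpl* (-1.74) and *Cebpa* (-2.0) were lower, as were 72.3% of all genes. The exact permutation test, 2-sided, gave each of these 5 p = 0.0286, the smallest that 4 against 4 mice allow, unadjusted, and none of the 9 ratios passed 0.05 once adjusted for the 9 compared. At 10 weeks the ratio of *Lep* was higher by 1.29, as for 2.82% of all genes. Those of *Fabp4* (-0.58), *Lpl* (-0.79) and *Dgat2* (-1.0) were lower, as for 33.8% of all genes. With 3 against 4 mice the exact test cannot go below p = 0.0571.

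The same ratio in the wild type was lower at 10 than at 2 weeks, with no overlap, for 7 of the 9 genes, against 88.1% of all genes. It was -1.83 for *Pparg*, -1.82 for *Cebpa* and -1.76 for *Lep*, and the 2 that overlapped were *Cfd* and *Retn*. In *Socs3* cKO only the ratio of *Retn* separated the ages among these 9, lower at 10 weeks by 1.23, against 3.57% of all genes.

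**Figure D4:**
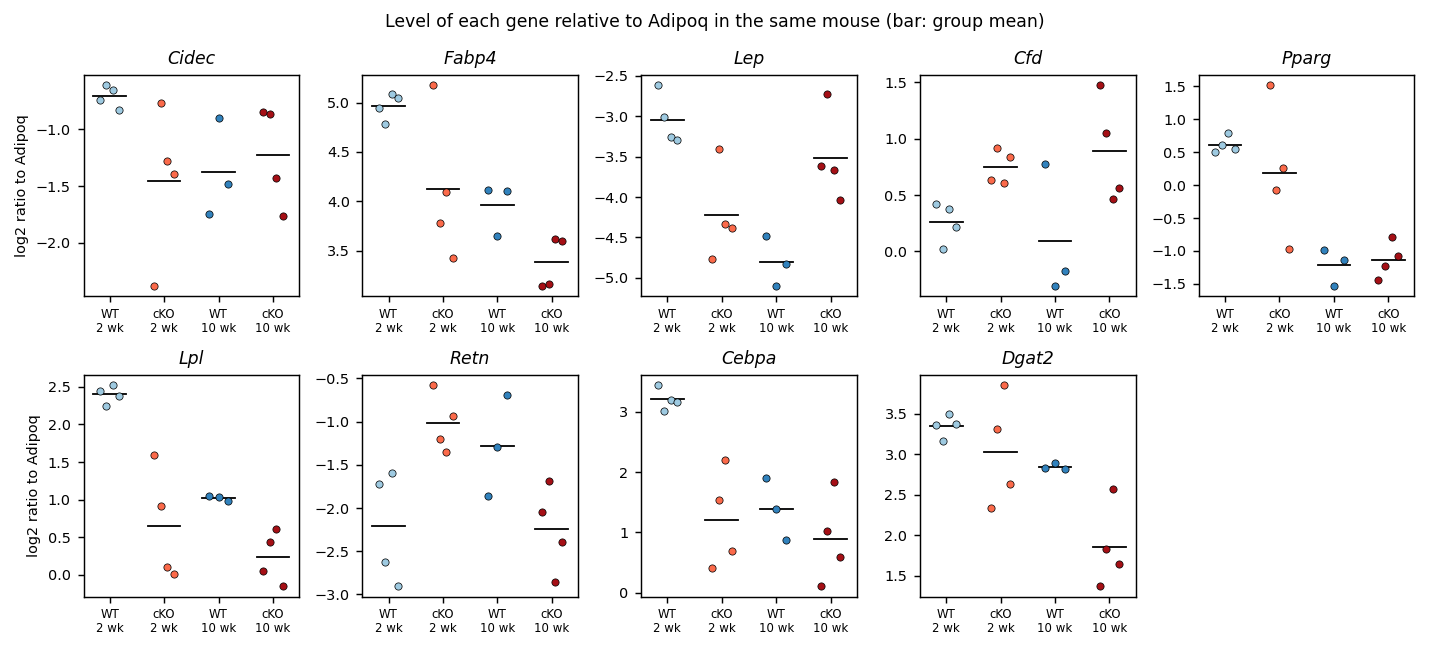
Log2 ratio of 9 genes to *Adipoq* in each mouse of the 4 groups, with 1 point per mouse and a bar at the group mean, and its own range on each y axis. *Lep*, *Lpl* and *Cebpa* drop from the wild type to *Socs3* cKO at 2 weeks, *Retn* and *Cfd* rise, and at 10 weeks *Lep* rises while *Dgat2* drops.

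Within groups, the mice varied together for some members and not for others. After the mean of each group was subtracted, Pearson's r with *Adipoq* over the 15 mice was 0.88 for *Cidec*, 0.84 for *Cfd*, 0.76 for *Lep*, 0.73 for *Retn* and 0.73 for *Dgat2*, and 0.15 for *Pparg*. These are descriptions over points that share library, depth and base composition. The median r over 13936 genes was 0.20. The other members are given next, over the same 15 mice. It was 0.64 for *Lpl*, 0.62 for *Fabp4* and 0.53 for *Cebpa*. A second r left out replicates 1 and 4 of *Socs3* cKO at 2 weeks, in which *Adipoq* itself lay farthest from its group mean. It was 0.71 for *Fabp4*, 0.70 for *Cidec*, 0.66 for *Pparg*, 0.65 for *Retn* and 0.51 for *Lpl*. For *Cfd* it was 0.56, for *Lep* 0.31, for *Dgat2* 0.13 and for *Cebpa* -0.42. Spearman's rho over all 15 mice was 0.34 for *Cfd* and 0.39 for *Lep*. The genes outside the members most like *Adipoq* by this measure were *Agpat2*, an acyltransferase of triglyceride synthesis (r = 0.92, Spearman's rho = 0.90), *Aco1*, the cytosolic aconitase (0.91 and 0.82), *Mir671* (0.90 and 0.79), *Cnpy3* (0.90 and 0.87) and *Fam109b* (0.90 and 0.85).

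Other genes of fat were read from lists. The adipocyte markers outside the members were the droplet coats *Plin1* and *Plin4*, the lipase *Lipe*, the glucose transporter *Slc2a4*, the glycerol channel *Aqp7*, *Lgals12*, *Adrb3* and *Acvr1c*. None of the 6 tested was called at 2 weeks or at 10 weeks by limma. At an unadjusted p under 0.05, in either direction, there was 1 of 6 at 2 weeks and 3 of 6 at 10 weeks. Of all genes, 7842 of 13524 were under that p at 2 weeks and 6385 of 13105 at 10 weeks. The log2(FC) was positive for 3 of the 6 at each age. Its median was 0.02 at 2 weeks and 0.13 at 10 weeks, beside 1.19 and 0.75 for the members. *Adrb3* and *Acvr1c* stayed below 1 FPKM in all 15 mice. Summed over the 8 genes, the level was 27.9 to 29.6 FPKM in the wild type and 7.30 to 51.5 FPKM in *Socs3* cKO at 2 weeks. At 10 weeks it was 18.4 to 36.7 FPKM and 23.5 to 55.5 FPKM. The groups overlapped at both ages. At 2 weeks the overlap of the sums rests on replicate 1 of *Socs3* cKO, at 7.30 FPKM. The other 3 mice, at 42.4, 32.1 and 51.5 FPKM, lay above the wild type. Of these 3 sums *Slc2a4* made up 7.59, 13.2 and 10.9 FPKM, and in the wild type 3.69 to 5.30 FPKM. The sum thus rests in part on that gene. Genes of skeletal muscle rose at that age too, and the part of muscle in *Slc2a4* was not tested. *Plin1* read 2.62, 2.69, 3.05 and 2.25 FPKM in the wild type and 0.490, 5.73, 4.06 and 13.5 FPKM in *Socs3* cKO at 2 weeks, with 0.45 ± 0.82 (SE), adjusted p = 0.66. Here too replicate 1 was the 1 *Socs3* cKO mouse below the wild type. Other markers of this list went the other way at 2 weeks. *Lgals12* read 3.61, 3.11, 3.09 and 4.22 FPKM in the wild type and 1.27, 3.16, 0.910 and 1.84 FPKM in *Socs3* cKO. *Lipe* read 10.2, 10.5, 9.91 and 10.5 FPKM in the wild type and 1.03, 9.57, 7.33 and 13.2 FPKM in *Socs3* cKO. Among the 6 tested at 10 weeks, *Plin4* (1.06, adjusted p = 0.0762) and *Plin1* (1.02, adjusted p = 0.0923) were the highest and *Aqp7* (-1.04, adjusted p = 0.0397) the lowest.

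Of 10 genes of the lipid droplet and lipolysis, 3 of 10 tested rose at 2 weeks, *G0s2* (2.63, adjusted p = 0.000696), an inhibitor of the triglyceride lipase, *Cidea* (1.63, adjusted p = 0.000125) and *Plin2* (1.26, adjusted p = 0.000563). At 10 weeks 0 of 9 were called. Of 10 genes of uptake and triglyceride assembly, 1 rose at 2 weeks, the fatty acid transporter *Cd36* (1.66, adjusted p = 0.000252), and 4 rose at 10 weeks. Those with the highest log2(FC) at 10 weeks were *Gpam* (3.03, adjusted p = 0.0019), the first acyltransferase of glycerolipid synthesis, *Pck1* (2.16, adjusted p = 0.00778), which supplies glycerol, and *Cd36* (1.77, adjusted p = 0.000627). At that age *Pck1* read 0.859, 1.44 and 0.579 FPKM in the wild type and passed the filter only through *Socs3* cKO. Its call is thus given as a description. Of 8 genes of fatty acid synthesis, 2 rose at 2 weeks, *Thrsp* (2.24, adjusted p = 0.00312) and the desaturase *Scd1* (2.11, adjusted p = 0.00025), and 0 of 8 at 10 weeks. Whether the ages differed was tested for single genes. The interaction was -3.29, adjusted p = 0.000306, for *G0s2* and -1.88, adjusted p = 0.000307, for *Scd1*.

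Of 8 further adipogenic transcription factors, 0 of 6 tested were called at 2 weeks and 2 of 6 rose at 10 weeks. These were *Ebf1* (3.23, adjusted p = 0.000222) and *Cebpd* (2.85, adjusted p = 3.40e-05), both early factors of adipocyte formation that other cells also use. At 10 weeks *Ebf1* read 0.772, 1.70 and 0.601 FPKM in the wild type and passed the filter only through *Socs3* cKO. Its call by genotype, like that of *Lep*, is thus given as a description. In the wild type *Ebf1* (-2.97, adjusted p = 1.37e-05) and *Ebf2* (-1.93, adjusted p = 0.000173) fell with age. *Ebf2* read 0.821, 1.29, 0.770 and 0.992 FPKM in the wild type at 2 weeks and 0.143, 0.145 and 0.252 FPKM at 10 weeks. It reached the filter only with *Socs3* cKO libraries counted, so its call is a description of low values. Of the receptors for fat hormones and insulin, 0 of 6 tested were called at 2 weeks and 1 of 6 at 10 weeks, *Cdh13* (2.92, adjusted p = 0.000308), which binds adiponectin on vessels. Among 7 other secreted factors, *Rbp4* (1.43, adjusted p = 0.00998) and *Nampt* (1.21, adjusted p = 0.000533) rose at 2 weeks, and *Apln* (-1.64, adjusted p = 0.00623) and *Angptl4* (-1.39, adjusted p = 0.000683) fell. At 10 weeks *Angptl4* (1.75, adjusted p = 0.000962), an inhibitor of lipoprotein lipase, rose. *Angptl4* thus changed in opposite directions at the 2 ages, with an interaction of 3.15, adjusted p = 9.89e-06.

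Among 7 markers of adipocyte precursors, *Dlk1* (-3.81, adjusted p = 0.0016), which is lost as precursors mature, fell at 2 weeks and *Ly6a* (1.52, adjusted p = 0.00223) rose. At 10 weeks *Dpp4* (1.70, adjusted p = 0.00278) and *Pdgfra* (1.34, adjusted p = 0.00112) rose. *Dpp4* read 1.82, 1.65 and 0.801 FPKM in the wild type of that age and passed the filter only through *Socs3* cKO. Its call is thus given as a description. In the wild type *Dlk1* fell with age (-4.32, adjusted p = 1.60e-05). Of 6 genes of brown fat, all 3 tested rose at 2 weeks, *Cox8b* (2.96, adjusted p = 0.000246), *Cox7a1* (2.38, adjusted p = 0.000884) and *Cidea*. At 10 weeks *Cox8b* (-1.61, adjusted p = 0.00306) and *Cox7a1* (-1.41, adjusted p = 0.00258) fell, and the defining gene of brown fat, *Ucp1*, stayed below 1 FPKM in all 15 mice, as did *Zic1*. Both *Cox* genes are also made in skeletal muscle, and 6 of 8 muscle genes rose at 2 weeks, led by *Myh1* (2.19, adjusted p = 0.000199). Their part in the brown fat list was not tested.

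Markers of other cells moved beside the members. Sebocyte genes, 3 of 7 of which rose at each age, summed to 147 to 167 FPKM in the wild type and 296 to 414 FPKM in *Socs3* cKO at 2 weeks, and to 108 to 173 FPKM and 245 to 345 FPKM at 10 weeks, with no overlap at either age. *Awat1* (1.61, adjusted p = 0.000368) led them at 2 weeks and *Scd3* (2.82, adjusted p = 0.000962) at 10 weeks. Skeletal muscle genes summed to 629 to 953 FPKM in the wild type and 1581 to 2908 FPKM in *Socs3* cKO at 2 weeks. At 10 weeks *Socs3* cKO was the lower, at 360.3 to 662 FPKM beside 708 to 1215 FPKM, and 1 of 8 was called lower. Macrophage genes were called for 0 of 7 at 2 weeks and 4 of 7 at 10 weeks, all higher, led by *Emr1* (1.46, adjusted p = 0.00348). Endothelial genes were called higher for 1 of 6 at 2 weeks, *Emcn* (1.31, adjusted p = 0.00364), and 3 of 6 at 10 weeks, led by *Kdr* (2.14, adjusted p = 0.00158). In the wild type of 10 weeks *Kdr* read 0.589, 1.19 and 0.514 FPKM. *Mc5r*, among the sebocyte genes called at that age, read 0.887, 1.99 and 1.03 FPKM. Both passed the filter only through *Socs3* cKO, so their calls are given as descriptions. Of 5 fibroblast genes, 3 fell at 2 weeks, *Col1a1* (-3.06, adjusted p = 0.000427) most, and *Dcn* (1.24, adjusted p = 0.00982) rose. Of 6 cartilage genes 2 fell at 2 weeks, *Col2a1* (-2.89, adjusted p = 0.00367) and *Matn3* (-2.33, adjusted p = 0.000246). *Matn3* stayed below 1 FPKM in *Socs3* cKO at 2 weeks and passed the filter only through the wild type, so its call is a description. Of 4 keratinocyte genes 1 rose at 2 weeks, *Krt14* (1.02, adjusted p = 0.0069). The fibroblast, cartilage and keratinocyte lists had 0 called at 10 weeks. The part of any of these cells in the levels of the members was not tested.

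**Figure D5:**
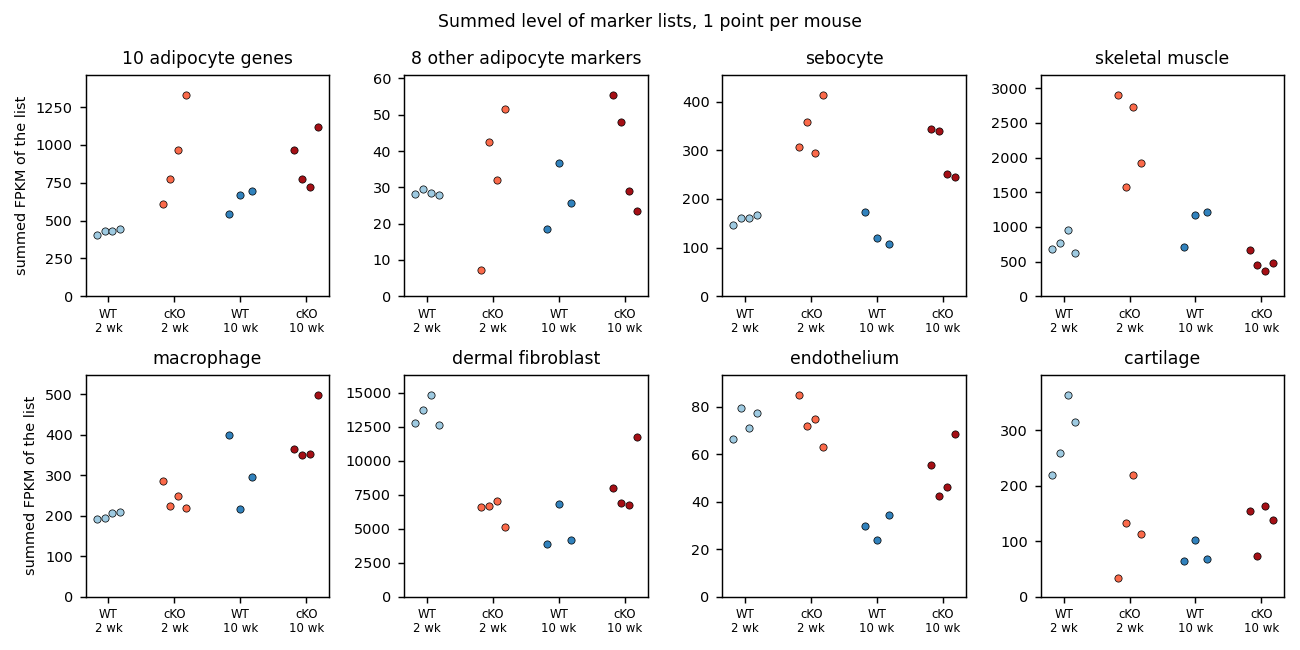
Summed FPKM of the 10 genes, of 8 other adipocyte markers and of 6 further marker lists in every mouse of the 4 groups, with 1 point per mouse and every y axis starting at 0. Sebocyte sums are higher in *Socs3* cKO at both ages with no overlap, muscle sums are higher at 2 weeks and lower at 10 weeks, and the 8 other adipocyte markers overlap between genotypes at both ages, at 2 weeks through 1 *Socs3* cKO mouse at 7.30 FPKM.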

How the data were processed

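Ear RNA of 15 mice was sequenced as single reads of 50 bases. Per the labels, the authors aligned to mm9 with TopHat2 2.1.0 and deposited FPKM values, and Cufflinks is named in the submitters' processing notes. Replicates were mice, grouped by the sample labels. The paper states more wild type mice, and the others were not analysed here. The sample titles carry codes that start with S, whose meaning the titles do not state. The codes of each group lie in a range of their own, so whatever they mark and group cannot be told apart.

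Values were tested as log2(FPKM + 0.1) with limma 3.58.1 (R 4.3.3), its prior variance following a trend with level, on genes of at least 1 FPKM in at least 3 mice. Tests were 2-sided with Benjamini-Hochberg adjustment over all genes tested, and a call needed an adjusted p below 0.01 and a |log2(FC)| of at least 1. Genotypes were compared within each age, and ages and the interaction in 1 fit of 4 groups. A fold change on this scale understates that of low genes such as *Lep*. The limma step was tested on simulated data. Other values came from Python 3.11.15, scipy 1.17.1, numpy 2.4.6, pandas 2.3.3 and matplotlib 3.10.9. Depth was estimated from the smallest steps of the values and gives approximate reads only.

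The members and lists were chosen with earlier results of these data known. Named genes were the members, *Socs3*, up to 3 called genes of each list with the largest |log2(FC)| by genotype at each age and by age in the wild type, and the 5 genes most like *Adipoq*. *Plin1*, *Plin4*, *Slc2a4*, *Aqp7*, *Lgals12*, *Lipe*, the list genes given for the interaction, *Nampt* and the genes listed without a value fall outside that rule. They were named after their values were seen. Alternatives were other pseudocounts and filters, median-of-ratios scaling, quantile normalization, a constant prior variance, the replicate number as a block, removal of the trend with length and GC content, other sets of samples in the fit, and leaving out each mouse. The 2 scalings were applied to the exact permutation test of single members after seeing the data. GC content and length came from 19443 of 21110 genes. For the list of other secreted factors, 1 named gene is not reported here. Positions are those of the mm9 annotation, and upstream sequences those of RefSeq for GRCm38.p6.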

Additional observations from a re-analysis of the deposited data

Results flagged for a closer look

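The genotype difference of *Retn* differed between the ages by a test of the difference itself. The interaction, the log2(FC) at 10 weeks minus that at 2 weeks, was -2.94 ± 0.73 (SE), adjusted p = 0.00578 (limma). The lowest *Socs3* cKO value exceeded the highest wild type value at 2 weeks, and the groups overlapped at 10 weeks. With the trend in length and GC content removed it was -1.77 and not called. Without any of WT replicates 2 and 4 at 2 weeks, WT replicates 2 and 3 at 10 weeks or *Socs3* cKO replicate 3 at 10 weeks, it was -2.86 to -2.54, with adjusted p from 0.0109 to 0.0214. Among 30 sets of 4 mice, 1 for each member and each group of 4, Dixon's ratio marked 0 with a mouse far from the others.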

How the results depend on the processing

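Depth limits *Lep* and *Retn*, the members with the fewest reads. Of the 10 members, 3 were called at 2 weeks, and the count was 5 with median-of-ratios scaling or with all 4 groups in 1 fit. All genes called were 2279 of 13476 and 3300 of 13937 in those fits, beside 1951 of 13524 in the main fit. At 10 weeks the member count was 3, and 5 with the trend in length and GC content removed. It was 1, *Lep* alone, without a filter, with median-of-ratios scaling or with quantile normalization. Every count at 10 weeks, also those without 1 mouse, includes *Lep*. All genes called at 10 weeks were 1610, 1131, 1709 and 1699 in these fits, as listed, beside 1957 in the main fit. In the wild type with age the member count was 2. It was 1 without a filter or with that trend removed, and 4 with median-of-ratios scaling or in the samples of that genotype alone. All genes called were 4215, 3225, 3293 and 4439 in these fits, as listed, beside 3559. In the interaction the member count was 1, and 0 without a filter, and 2 with median-of-ratios scaling or with the trend removed. All genes called there were 3444, 3290 and 3073, beside 3417. Without 1 mouse at a time the counts were 2 to 6, 1 to 4, 0 to 4, 0 to 1 (*Socs3* cKO with age) and 0 to 2 in that order, and over all genes 859 to 3348, 745 to 2665, 2205 to 4519, 300 to 700 and 1959 to 4843, where the full fits gave 1951, 1957, 3559, 493 and 3417. The lowest was without wild type replicate 2 at 2 weeks and without wild type replicate 3 at 10 weeks, and the highest at 2 weeks, 3348, without *Socs3* cKO replicate 2. Deviations of same-numbered mice correlated at -0.06 to 0.06 at 2 weeks and -0.20 to 0.04 at 10 weeks. Those of differently numbered mice correlated at -0.14 to 0.09 and -0.21 to 0.16. So few pairs cannot settle whether the replicate numbers pair the mice. With the replicate block 0 members were called at 2 weeks, 2 at 10 weeks and 0 in the interaction, and all genes called at 2 weeks went from 1951 to 751. Fits without a filter called 1131 of all genes at 10 weeks in place of 1957, the fit of all 4 groups 3300 at 2 weeks, and *Socs3* cKO alone 146 with age in place of 493. The share of calls that were higher went from 83.7% to 62.4% at 10 weeks and from 24.2% to 47.6% with age in the wild type under median-of-ratios scaling. Directions turned as follows, and the cause was not tested. With length and GC content at 2 weeks, *Cebpa* 1.08, *Fabp4* -0.62 and *Lpl* -0.34. At 10 weeks, *Dgat2*, *Lpl* and *Retn* were -0.25, -0.046 and -0.22 under median-of-ratios scaling and -0.12, -0.0017 and -0.35 under quantile normalization, *Dgat2* -0.047 and *Retn* -0.033 under the block, and *Lpl* -0.084 with length and GC content. With age in the wild type, *Cebpa*, *Lep* and *Pparg* were 0.10, 0.12 and 0.090 under median-of-ratios scaling, *Lep* and *Pparg* both 0.25 under quantile normalization, and *Cebpa* 0.13 and *Fabp4* -1.18 with length and GC content. With age in *Socs3* cKO, *Fabp4* was -0.066 under median-of-ratios scaling and *Cebpa* -0.042 with length and GC content. In the interaction, *Cidec* and *Lpl* were -0.34 and -0.29 under median-of-ratios scaling and -0.75 and -0.012 under quantile normalization. With length and GC content *Adipoq* was 0.33, *Cebpa* -0.18, *Cfd* 0.28, *Fabp4* 1.74 and *Pparg* 0.45. Without 1 mouse at a time, values of both signs were seen for *Cebpa* (-0.52 to 0.40) and *Lpl* (-0.15 to 0.25) at 2 weeks, *Dgat2* (-0.18 to 0.14) and *Retn* (-0.43 to 0.44) at 10 weeks, *Cebpa* (-0.19 to 0.73) and *Fabp4* (-0.18 to 0.18) with age in *Socs3* cKO, and *Cidec* (-0.54 to 0.54) and *Lpl* (-0.033 to 0.36) in the interaction. Of 488 member values from alternatives that kept every mouse, 421 kept direction and side of the threshold. In 30 the direction turned, in 19 a call was lost and in 18 a call was gained. The 421 include values called in neither fit, so they do not measure how well the calls held.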
